A study of Sus scrofa with 36 samples.

Results

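CDX1, CDX2 and CDX4 are the caudal-type homeobox genes, and the 3 of them were chosen by name from the 20683 genes of the deposited expression tables. They are described here in all 36 bulk RNA-seq libraries of a pig induced pluripotent stem cell (iPSC) study, which fall into 11 groups. iPSCs are body cells returned to a state from which they can form the tissues of the body.

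All the differentiated libraries came from clone 8, a single iPSC line. Day 0 was undifferentiated clone 8 after removal of its mouse embryonic feeder cells. Day 1 was labelled primitive streak or mesendoderm in E8A100ch3, day 2 presomitic mesoderm in S1LDN medium, and day 3 somite in S2LDN medium. The other clone 8 groups were labelled endothelial cells at day 6, beating cardiomyocytes at day 9 and neural progenitors at day 24. Each clone 8 group had 3 libraries. A second set held pig fibroblasts (4 libraries) and 3 further undifferentiated lines, clone 1 (PiPS-EP1 minusPD, 3 libraries), clone 2 and clone 3 (both PiPS-EP5 minusPD minusA83, 4 libraries each). Each line is 1 clone, and no label says that libraries of a group were separate cultures, so p-values measure the spread between these libraries, which may be technical.

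CDX proteins are transcription factors of the tail end of the embryo. Wnt and FGF signals switch their genes on in the posterior growth zone, where presomitic mesoderm and spinal cord are laid down, and CDX proteins in turn help to activate the trunk HOX genes that give segments their identity. CDX2 has further roles in the trophectoderm, the outer layer of the blastocyst, and with CDX1 in the intestine. CDX4 is also known from early blood formation. On the Sscrofa11.1 build, RefSeq places CDX1 on chromosome 2 (bases 151202842 to 151217132), CDX2 on chromosome 11 (5339727 to 5346081) beside the related homeobox genes PDX1 and GSX1, and CDX4 on chromosome X (59089131 to 59100958).

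Library totals ran from 1845333 to 69879325 assigned reads, at most 9727315 in clone 8 and at least 24314241 in clones 1 to 3, so the few reads of a low gene weigh more heavily on clone 8. The endothelial libraries carried their label's markers: the adhesion molecule PECAM1 stood at 276 to 295 TPM (a level corrected for gene length and library size). They also held genes listed for other cells. Of the pluripotent list, LIN28A averaged 596 TPM and SOX2 47.7 TPM, but POU5F1 1.59 and NANOG 0.323 TPM. Of the somite list, MEOX1 averaged 13.6 and PAX3 11.6 TPM, both called higher than at day 3, while TCF15 was called lower and FOXC2 was not called. The part of other cells in these libraries, and in their CDX levels, was not tested. The somite label of day 3 was less clear. MEOX1 averaged 1.08 TPM at day 2 and 2.22 at day 3, and TCF15 15.8 and 11.7 TPM. PAX3 averaged 0.153 and 0.847 TPM, and FOXC2 1.76 and 14.1 TPM. None of these steps passed in the edgeR fit of all clone 8 libraries. Against day 0, MEOX1 and FOXC2 were called higher at day 3, and TCF15 and PAX3 were not called. Replicate 2 of the cardiomyocytes and replicate 1 of the neural progenitors went against their labels. The library labelled cardiomyocyte replicate 2 had 254 TPM of the neural factor PAX6 and 4.28 of cardiac troponin TNNT2. The library labelled neural progenitor replicate 1 had 5155 TPM of TNNT2 and 0.19 of PAX6. Both shared in the spread of every clone 8 test, and each result below that changed without them is given both ways.

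The CDX genes were high in presomitic cells, CDX2 and CDX4 but not CDX1 were present in endothelial cells, and undifferentiated clones 1 to 3 carried CDX4 almost alone. Among the groups, CDX2 had its highest mean at day 2 with 74.1 ± 23.4 TPM (SD, n = 3). Endothelial cells followed with 25.4 ± 2.43 TPM and day 3 with 6.56 ± 2.78 TPM (SD, n = 3 each). These groups and day 1 did not overlap in any library, whereas the remaining 7 groups all had means under 0.4 TPM and overlapped their neighbours in that order. CDX4 was ordered differently: clone 1 stood at 20.01 ± 1.72 TPM and day 2 at 17.98 ± 1.67 TPM (SD, n = 3 each), and their libraries overlapped. Clone 3 and clone 2 overlapped each other at the next step, and so did day 1 and the endothelial cells after them. CDX1 was the lowest of the family, with 7.69 ± 2.54 TPM at its day 2 maximum (SD, n = 3). Only day 2 stood clear of its neighbour for CDX1, since day 1 already overlapped clone 3. In bulk RNA fewer CDX cells and less CDX RNA per cell cannot be told apart.

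**Figure D1:**
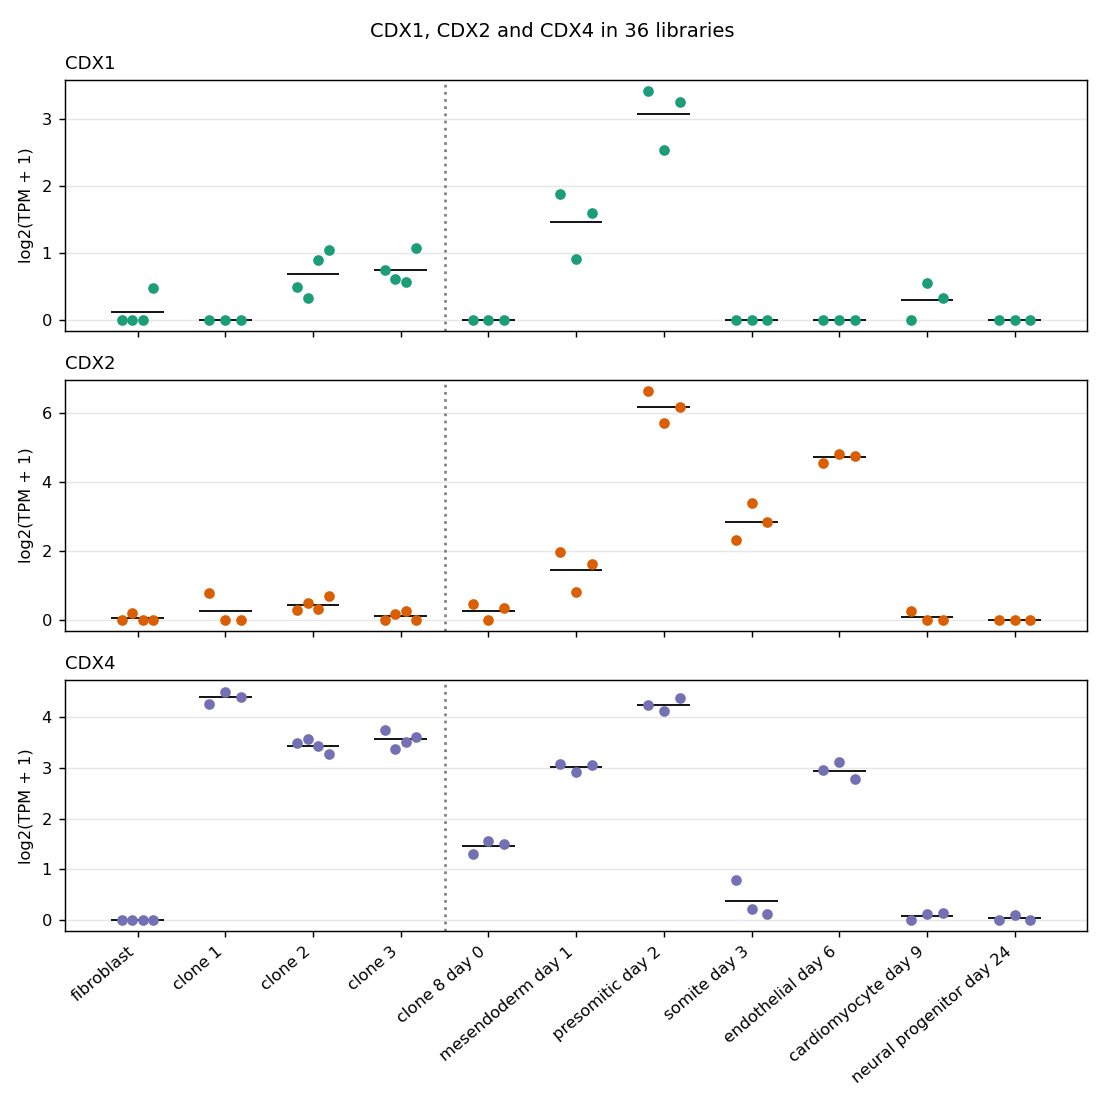
Levels of CDX1, CDX2 and CDX4 as log2(TPM + 1) in 36 libraries, with a point per library and a line at the group mean; the dotted line separates clone 8 from the other cells. CDX2 peaks at day 2 and is second highest in endothelial cells, and CDX4 in clone 1 overlaps the day 2 libraries.

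The first step of the series asked what changes as undifferentiated cells enter the primitive streak state. All 3 CDX genes rose between day 0 and day 1, where 12.7% of all 14248 genes tested in clone 8 changed in either direction and 5.53% rose. CDX4 read 1.48, 1.95 and 1.82 TPM in the day 0 libraries and 7.39, 6.55 and 7.34 TPM at day 1. It was thus already detectable in every undifferentiated library, and its groups did not overlap. It rose by 2.24 ± 0.47 on the log2 scale (SE; adjusted p = 0.00424, edgeR quasi-likelihood test with Benjamini-Hochberg adjustment, as for every adjusted p below unless another tool is named). CDX2 went from 0.38, 0 and 0.26 TPM to 2.88, 0.75 and 2.06 TPM, a log2 rise of 3.24 ± 0.70 (SE; edgeR adjusted p = 0.0071). Replicate 2 was the lowest of the day 1 libraries for CDX1, CDX2 and CDX4 alike. CDX1 was at 0 in the 3 day 0 libraries and at 2.69, 0.88 and 2.02 TPM at day 1, which rested on 10, 3 and 8 reads. Over the group it was at least 7.8-fold higher than a day 0 floor of 3 counts (edgeR adjusted p = 0.00978).

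From day 1 to day 2 CDX2 climbed far more than its relatives. It reached 98.62, 52.06 and 71.68 TPM, a log2 rise of 5.28 ± 0.61 over day 1 (SE; edgeR adjusted p = 9.21e-05). This was 1 of 3 CDX genes past the threshold in a step where 7.39% of genes tested were and 3.94% rose. CDX4 read 17.84, 16.39 and 19.72 TPM at day 2, with a log2 difference of 1.35 ± 0.45 (SE; edgeR adjusted p = 0.0847). CDX1 read 9.68, 4.83 and 8.56 TPM, with a difference of 2.03 ± 0.72 (SE; edgeR adjusted p = 0.153). For both, every day 2 library lay above every day 1 library. Without the cardiomyocyte and neural progenitor libraries that went against their labels, the log2 differences were the same and both passed, with edgeR adjusted p = 0.0352 for CDX1 and 0.0004 for CDX4; 12.3% of genes tested rose in that fit.

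The unequal climb turned the family's make-up over. The ratio of CDX2 to CDX4 in TPM was 0.39, 0.11 and 0.28 in the day 1 libraries and 5.53, 3.18 and 3.63 at day 2. CDX4 was the more abundant in every day 1 library and CDX2 in every day 2 library. The mean log2 ratio rose by 4.11 (exact two-sided permutation test, p = 0.1, the smallest that 3 against 3 allows; 0.3 adjusted over 3 such comparisons). As a percentage of the day 2 mean, CDX4 had already reached 39.4% at day 1 and CDX1 24.2%, but CDX2 only 2.56%.

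**Figure D2:**
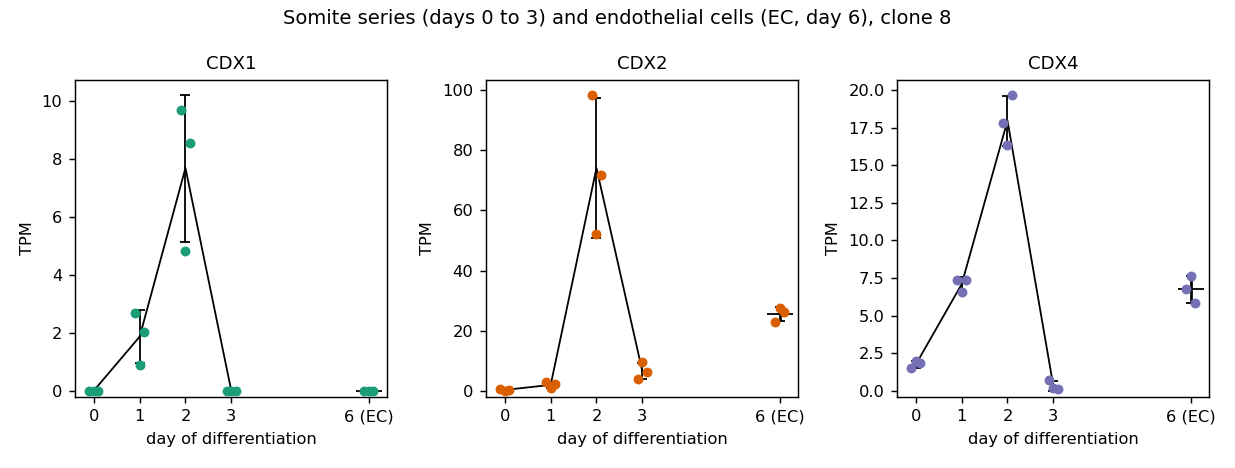
CDX levels in TPM on linear axes against day of differentiation in clone 8, with a point per library and bars of the mean and SD (n = 3); the endothelial cells at day 6 are a separate differentiation and are not joined by the line. All 3 genes have their highest day at day 2, and CDX2 and CDX4 but not CDX1 are present in endothelial cells.

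Between day 2 and day 3, labelled presomitic and somite, all 3 CDX genes fell, in a step where 23.7% of genes tested changed and 11.2% fell. CDX1 was at 0 in all 3 day 3 libraries, at least 21.4-fold lower than at day 2 (edgeR adjusted p = 0.0017). CDX4 was left at 0.72, 0.17 and 0.08 TPM, a log2 change of -6.02 ± 0.58 (SE; edgeR adjusted p = 1.95e-06). CDX4 thus ended below its starting point. Against day 0 it was lower by a log2 change of -2.43 ± 0.54 (SE; edgeR adjusted p = 0.00329), and the groups did not overlap. CDX2 read 3.98, 9.51 and 6.2 TPM at day 3, a log2 change of -3.69 ± 0.56 from day 2 (SE; edgeR adjusted p = 0.000269). It stayed above its own day 0 level, with a log2 difference of 4.82 ± 0.70 (SE; edgeR adjusted p = 0.00017). Day 3 against day 0 therefore moved CDX2 and CDX4 in opposite directions, in a comparison where 23.5% of genes tested changed and CDX1 was at 0 on both sides.

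The decline left CDX2 as the main CDX transcript. It made up 93.9% of the summed CDX level at day 3, against 73.6% at day 2 and 16.5% at day 1 (means of 3 libraries). The libraries of day 3 were uneven, with 84.7% in replicate 1 and 98.7% in replicate 3. The mean log2 ratio of CDX2 to CDX4 was 2.85 higher at day 3 than at day 2 (exact two-sided permutation test, p = 0.2; 0.3 adjusted over 3 comparisons). The day 3 ratios of 5.53, 55.9 and 77.5 rested on 9, 2 and 1 reads of CDX4, so these ratios and the uneven shares are poorly measured. Shares of reads, unlike those of TPM, are not corrected for gene length: CDX1 and CDX2 averaged 1.86 and 1.90 TPM at day 1. Among reads assigned to CDX1 or CDX2, CDX1 held 33.3% at day 1 (21 of 63 reads; exact binomial 95% interval 22.0 to 46.3%). At day 2 it held 5.15% (4.07 to 6.41%; 1456 reads). None of the 94 such reads at day 3 was CDX1, which allows a share of up to 3.19% (3 reads of the total; the exact binomial 95% upper bound is 3.85%). Intervals and limits cover counting error only.

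**Figure D3:**
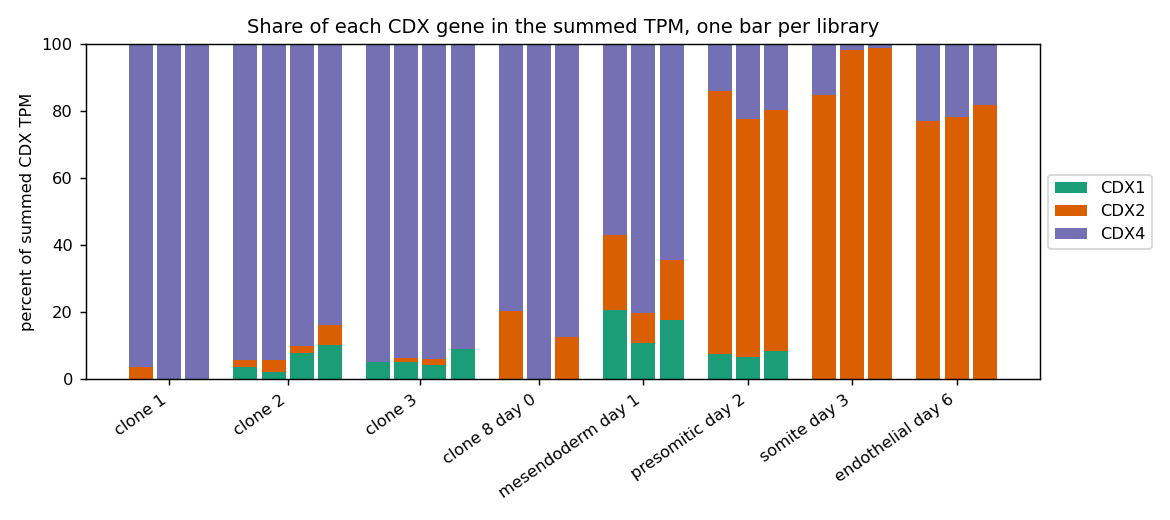
Share of CDX1, CDX2 and CDX4 in the summed CDX TPM, in percent, with a bar per library for the 8 groups whose summed mean exceeds 1 TPM. CDX4 makes up most of the sum in the undifferentiated clones and at day 1, and CDX2 from day 2 onward and in endothelial cells.

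The day 6 endothelial cells carried CDX2 and CDX4 at a ratio inside the range of the presomitic libraries, with no CDX1 reads. CDX2 read 22.72, 27.4 and 26.21 TPM and CDX4 read 6.74, 7.62 and 5.86 TPM. All libraries lay above those of day 0 for both genes. Trophectoderm genes were higher there as well, in 5 of 7 tested. Against day 0, CDX2 was higher by 6.80 ± 0.71 on the log2 scale (SE; edgeR adjusted p = 1.18e-05) and CDX4 by 1.97 ± 0.46 (SE; edgeR adjusted p = 0.00625), where 19.3% of genes tested changed and 11.6% were higher. These levels were 34.3% of the day 2 mean for CDX2 and 37.5% for CDX4. The CDX2 to CDX4 ratio was 3.37 to 4.47, inside the day 2 range of 3.18 to 5.53 (difference of mean log2 ratios -0.08; exact two-sided permutation test, p = 0.8; 0.8 adjusted over 3 comparisons). CDX1 had none of the 573 reads assigned to CDX1 or CDX2 there, which allows a share of up to 0.524% (exact binomial 95% upper bound 0.642%), under the 5.15% of day 2.

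Against day 3, the end point labelled somite, 2 of 3 CDX genes were higher in endothelial cells, where 15.4% of genes tested changed and 8.32% were higher. CDX4 was higher by 4.40 ± 0.55 on the log2 scale (SE; edgeR adjusted p = 4.6e-05). CDX2 was higher by 1.97 ± 0.53 (SE; edgeR adjusted p = 0.0203), with no overlap between libraries. The CDX2 call ended when single libraries were left out: the edgeR adjusted p was 0.0987 without day 3 replicate 1, 0.0745 without day 3 replicate 3, 0.0671 without endothelial replicate 2 and 0.0584 without endothelial replicate 3. The log2 difference stayed between 1.68 and 2.39 over the 6 libraries left out in turn.

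Cells labelled cardiomyocyte and neural progenitor held next to no CDX RNA. CDX2 read 0.19, 0 and 0 TPM in the cardiomyocyte libraries and 0 in the neural progenitor libraries. CDX4 was at most 0.1 TPM in any of the 6. The libraries that went against their labels held at most 0.46 TPM of any CDX gene, which was CDX1 with 1 read. CDX2 was at least 138.8-fold higher in endothelial cells than in neural progenitors (edgeR adjusted p = 8.35e-06). Against cardiomyocytes, with 1 read of CDX2 and 3 of CDX4 in all, the pooled ratios were 428.5 for CDX2 (95% counting interval 76.6 to 16956) and 92.5 for CDX4 (31.4 to 450.5). CDX4 against neural progenitors, with 1 read there, gave 269.7 (48.1 to 10680). In these comparisons 2 of 3 CDX genes passed, against 27.0% of genes tested for cardiomyocytes and 28.5% for neural progenitors (14.3% higher in each).

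Undifferentiated clones 1 to 3 were compared with fibroblasts, the kind of body cell included as a non-pluripotent reference. CDX4 was at 0 in all 4 fibroblast libraries. It read 18.26, 21.7 and 20.06 TPM in clone 1, 10.3, 10.84, 9.74 and 8.62 TPM in clone 2, and 12.47, 9.41, 10.37 and 11.22 TPM in clone 3. Over the clones it was at least 760.7-fold higher than the fibroblast floor of 3 counts (edgeR adjusted p = 8.27e-13). CDX2 was low in all of these cells, at most 0.71 TPM in any clone library, and differed from fibroblasts by 1.78 ± 1.54 on the log2 scale (SE; edgeR adjusted p = 0.305). CDX1, at most 1.11 TPM in a clone library, had an edgeR adjusted p of 0.942. Its log2 difference of 1.44 had an SE of 10.6, with clone 1 at 0, so this test could not decide. In pooled reads CDX1 was 19.8-fold higher in the clones, with 104 reads against 1 (counting interval 3.48 to 791). The fibroblast library with that read, at 0.39 TPM, overlapped the clones. CDX1 passed in limma. So 1 of 3 CDX genes passed in edgeR, in a comparison where 74.6% of the 14660 genes tested in this set did and 38.6% were higher.

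Clone 1 had more CDX4 than the other lines and no CDX1 reads. Its CDX4 was higher than in clone 2 by 1.19 ± 0.17 on the log2 scale (SE; edgeR adjusted p = 0.00129) and than in clone 3 by 0.87 ± 0.17 (SE; edgeR adjusted p = 0.00994). No clone 1 library overlapped either line. CDX1 was at 0 in all clone 1 libraries, while clone 2 read 0.4, 0.25, 0.85 and 1.06 TPM and clone 3 read 0.67, 0.52, 0.47 and 1.11 TPM. It was at least 8.01-fold lower than in clone 2 (edgeR adjusted p = 0.0376) and at least 8.89-fold lower than in clone 3 (0.0383). So 2 of 3 CDX genes passed in each comparison, where 9.31% and 6.7% of genes tested did. The CDX1 calls were marginal. Against clone 2 the edgeR adjusted p was 0.0887, 0.0889 and 0.058 without clone 1 replicate 2, 3 or 4, and 0.0547 and 0.0765 without clone 2 replicate 1 or 4. Against clone 3 it was 0.0852, 0.0865 and 0.0591 without clone 1 replicate 2, 3 or 4, and 0.0769 and 0.0738 without clone 3 replicate 2 or 3. Without the filter on low counts it was 0.0574 and 0.0615.

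Readings of exactly 0 were also more common in clone 1 than in its companions. Of 1147 genes with means of 0.3 to 1.2 TPM in both clone 2 and clone 3, 8.11% were at 0 in every clone 1 library. The same count gave 0.534% of 936 genes for clone 2, and none of 849 genes for clone 3. The part of this in the CDX1 reading was not tested. Clones 2 and 3 were not separated by edgeR for any CDX gene (0 of 3 at an adjusted p under 0.05, 0 of 3 at an unadjusted p under 0.05, and 0 of 3 by limma, where 4.22% of genes tested passed in edgeR). DESeq2 gave an adjusted p for CDX4 alone, which was 0.203. Their CDX4 differed by -0.32 ± 0.16 on the log2 scale (SE; edgeR adjusted p = 0.341). CDX2 reads in clone 1, which were 18, all came from replicate 2. Undifferentiated clone 8, with 1.75 ± 0.24 TPM of CDX4 (SD, n = 3), lay below every library of clones 1 to 3, without a test because that set was fitted separately. EIF1AY, a gene of chromosome Y, read 63.9 to 116 TPM in clones 1 to 3, at most 2.22 TPM in clone 8 and 0 in all 4 fibroblast libraries. The part of this difference in the levels of the X-linked CDX4, also between clones and fibroblasts, was not tested.

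Genes of Wnt and FGF signalling were read at the step of the first CDX rise. Of 9 Wnt and FGF genes of the posterior growth zone that were tested, 6 rose from day 0 to day 1, with a median log2 change of 3.66 against -0.02 over all genes (5.53% of all genes rose). WNT5A, a ligand of the elongating tail, went from 0.947 to 29.1 TPM and FGF17 from 3.07 to 69.7 TPM. Of 10 Wnt response genes, 7 rose, with a median of 3.20, among them LEF1 (1.6 to 50.5 TPM), a nuclear partner of Wnt signalling. NKD1, a feedback inhibitor, went from 2.07 to 48.4 TPM. Of 9 axial progenitor and presomitic transcription factors, 7 rose, with a median of 5.10. CDX genes rose at the same step as these lists, and a link between them was not tested.

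At day 2, when CDX2 peaked, these lists were mixed. FGF17 fell to 5.59 TPM and FGF4 to 0 TPM, while the ligand WNT5B rose from 13.1 to 61.4 TPM. T, the brachyury gene of the streak, fell from 307 to 63.4 TPM, and the presomitic factors MSGN1 (12.2 to 91.1 TPM) and TBX6 (5.79 to 50.6 TPM) rose. At day 3, with the CDX fall, 5 of 9 signals, 7 of 10 Wnt response genes and 7 of 9 axial factors fell, while 11.2% of all genes fell. WNT5B dropped to 2.26 TPM, NKD1 from 55.4 to 2.29 TPM and MSGN1 to 0 TPM. The endothelial cells had CDX2 and CDX4 with T at 0.193 TPM, below the 10.3 TPM of day 0 (edgeR adjusted p = 3e-06), and MSGN1 at 0. Among their Wnt response genes, 4 of 10 were higher than at day 0, including LEF1 at 22.4 TPM and NKD1 at 16.6 TPM, where 11.6% of all genes were.

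Retinoic acid, made by ALDH1A2 and broken down by CYP26A1, opposes posterior signals in the embryo. ALDH1A2 rose from 4.15 TPM at day 1 to 348 TPM at day 2, together with CDX2, and CYP26A1 fell from 184 to 36.6 TPM. At day 3 ALDH1A2 fell as CDX2 did, to 115 TPM, a log2 change of -1.85 ± 0.54 (SE, edgeR adjusted p = 0.0207), and stayed above its day 1 level. In undifferentiated cells CYP26A1 was at 48.3 TPM in clone 1, which had the most CDX4, and at 225 TPM in clone 2, a log2 change of -1.97 ± 0.14 (SE; edgeR adjusted p = 3.2e-06). Clone 3 was at 59.8 TPM with a CDX4 level overlapping that of clone 2.

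HOX genes are the best known targets of CDX proteins and are numbered 1 to 13 from head to tail. Of 9 tested genes of groups 1 to 4, 8 rose from day 1 to day 2, after a median log2 change of 0.23 from day 0 to day 1. The day 2 step had a median log2 change of 6.84 (5.38 with genes at 0 set to their limit) against 0.00 over all genes. HOXB1 went from 0.11 to 25.9 TPM. Of the trunk groups 5 to 9, 3 of 14 rose at that step, where 3.94% of all genes rose, among them HOXB7 (0.717 to 10.99 TPM) and HOXB8 (0.49 to 3.87 TPM). Without the libraries that went against their labels, 9 of 9 and 5 of 14 rose, against 12.3% of all genes. From day 2 to day 3, 4 of 9 genes of groups 1 to 4 fell and 3 of 14 of groups 5 to 9, where 11.2% of all genes fell. Without those libraries 7 and 5 fell, against 23.0% of all genes. HOXB1 ended at 0.303 TPM and HOXB8 at 0.337 TPM.

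In endothelial cells HOX genes of both the head and the trunk groups were higher than at day 0. All 9 genes of groups 1 to 4 and all 14 of groups 5 to 9 that were tested passed in that direction, with median log2 changes of 8.29 and 7.60 (7.32 and 6.56 with genes at 0 set to their limit), where 11.6% of all genes did. HOXC8 read 50.1 TPM against 0.0367 at day 0, and HOXB8 read 32.5 TPM against 0. Against day 3, 7 of 9 and 13 of 14 were higher (8.32% of all genes). Genes low elsewhere could enter the test through the endothelial libraries, so these counts were in part fixed by the low-count filter. HOXC5, for example, averaged 4.30 TPM in endothelial cells and 0 at day 1, in cardiomyocytes and in neural progenitors. The order of CDX2, 74.1 TPM at day 2 and 25.4 TPM in endothelial cells, was thus the reverse of that of HOXB8, with 3.87 and 32.5 TPM. Of the 3 tested genes of the tail groups 10 to 13, HOXA10 was higher than at day 0, at 1.47 against 0 TPM. Among HOX cofactors, MEIS2 rose with CDX2 from 3.13 TPM at day 1 to 49.4 TPM at day 2 and stood at 91.8 TPM in endothelial cells. In clones 1 to 3, whose CDX4 was high, 13 of 13 tested HOX genes of groups 5 to 9 were lower than in fibroblasts, where CDX4 was at 0 (35.9% of all genes were lower). Several were near 0 in the clones, such as HOXC8 at 0, 0 and 0.075 TPM in clones 1, 2 and 3 against 49.1 in fibroblasts. Such genes passed the low-count filter only through the fibroblasts. This count was therefore in part fixed by the filter, and its relation to CDX4 was not tested.

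**Figure D4:**
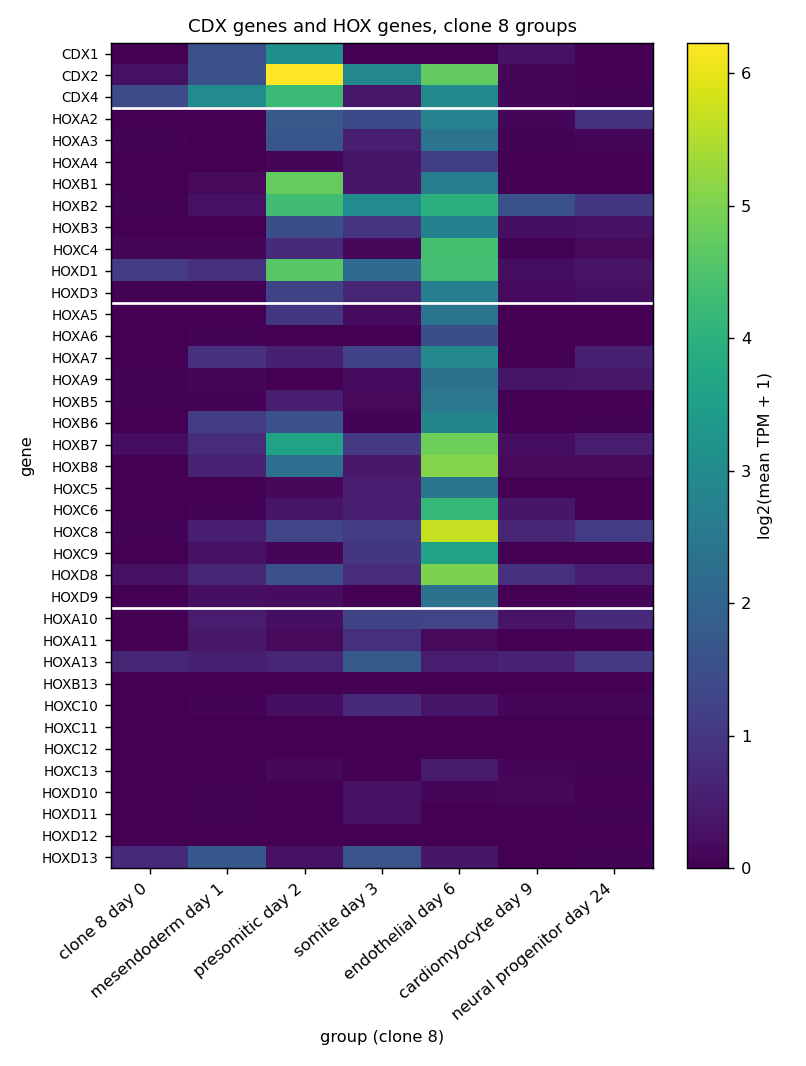
Group means of CDX genes and HOX genes in clone 8, coloured by log2(mean TPM + 1), with white lines between the CDX genes and the HOX groups 1 to 4, 5 to 9 and 10 to 13. Day 2 has the highest CDX2 and HOXB1, whereas HOXB8 and HOXC8 are highest in endothelial cells.

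Genes of the other CDX2 tissues were also read. Of 7 tested trophectoderm genes, 4 rose from day 2 to day 3, while 12.5% of all genes rose. Without the libraries that went against their labels 7 rose, against 25.4% of all genes. PLET1 went from 0.647 to 258 TPM and ELF5 from 2.54 to 32.6 TPM. In endothelial cells 5 of 7 were higher than at day 0, where 11.6% of all genes were. PLET1 stood there at 57.6 TPM against 0.84 at day 0, TFAP2A at 20.1 against 0.467, and GATA2, a factor of endothelial cells as well, at 5.98 against 0.253. The list summed to 1072 to 1153 TPM per library at day 0, 553 to 581 TPM at day 2, 2764 to 3686 TPM at day 3 and 873 to 1075 TPM in endothelial cells, and none of the 7 was at 0 in all libraries of any of these groups. Most of each sum was the keratin gene KRT19, with means of 1073, 549, 2830 and 810 TPM in that order. In the fit of all clone 8 libraries KRT19 did not pass from day 2 to day 3 (edgeR adjusted p = 0.230). Nor did it in endothelial cells against day 0 (edgeR adjusted p = 0.874). The sums therefore mainly follow 1 gene. The part of such cells in the CDX2 level, in endothelial cells too, was not tested. Of 8 intestinal genes, 6 were at 0 in every day 2 library and 4 in every endothelial library, CDH17 and FABP2 among both. Their sum was 4.39 to 5.64 TPM at day 2 and 1.58 to 3.68 TPM in endothelial cells. At day 3 it was 62.5 to 75.7 TPM, where the villus protein gene VIL1 stood at 68.0 TPM.

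Each CDX gene had a different set of nearest companions. Likeness was Pearson's r of log2(TPM + 1) over the 21 clone 8 libraries among 12089 genes with a group mean of at least 5 TPM, and it describes mainly differences between the 7 groups, whose libraries share line and depth range. CDX1 was most like MSGN1 (r = 0.97), the phospholipase gene PLA2G5 (0.97), TBX6 (0.94), ASPG (0.93) and PLA2G2E (0.92). MSGN1 and TBX6 are presomitic transcription factors, and MSGN1 was at 0 wherever clone 8 had no CDX1 at days 0, 3 and 6. The genes most like CDX2 included HOXD1 (0.96), the lipid transporter gene ABCA1 (0.94), ALDH1A2 (0.91) and HOXB1 (0.91). Those most like CDX4 included the collagen gene COL13A1 (0.98), the potassium channel subunit gene KCNE3 (0.94), TMEM132C (0.93) and NKD1 (0.92). The CDX genes were less like each other, with r of 0.60 for CDX1 and CDX2 and 0.75 for CDX4 with either. With log2(TPM + 0.1), 2 of the first 5 genes for CDX2 and 3 of the first 5 for CDX4 were the same.

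**Figure D5:**
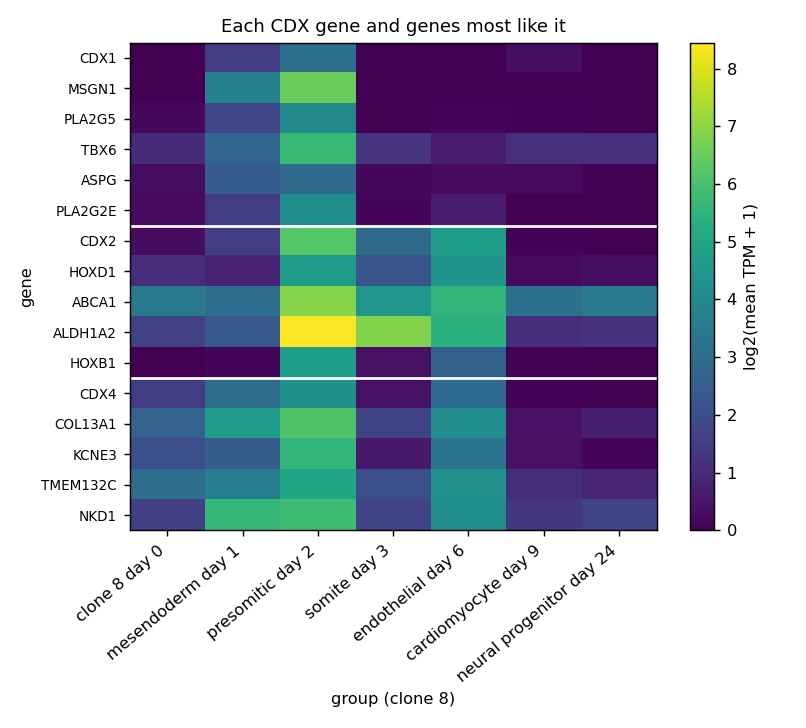
Group means in clone 8, coloured by log2(mean TPM + 1), of each CDX gene and the genes named as most like it, with white lines between the sets. The CDX1 set is brightest at day 2, while the CDX2 and CDX4 sets are brighter in endothelial cells than at day 3, apart from ALDH1A2, which is lower there.

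The genes beside the CDX genes on their chromosomes were read in the same libraries. CDX1 lies 4.41 kb from SLC6A7, which was at most 0.08 TPM on average from day 0 to day 3, and 10.02 kb from the growth factor receptor gene PDGFRB. PDGFRB averaged 0.53 TPM at day 1, 2.43 at day 2 (log2 difference 2.28 ± 0.76, SE; edgeR adjusted p = 0.088) and 3.41 at day 3, and its mean was not lower at day 3, when CDX1 was at 0 (day 3 against day 2: log2 difference 0.22 ± 0.71, SE; edgeR adjusted p = 0.857). PDGFRB was also at 0 in all clone 1 libraries, against 0.77 TPM in clone 2 and 0.32 TPM in clone 3 (edgeR adjusted p = 0.00021 and 0.00198). In that range of 0.3 to 1.2 TPM, 8.11% of 1147 genes were at 0 in every clone 1 library. The part of this in the PDGFRB reading was not tested. The further neighbours HMGXB3 and CAMK2A were not called between clone 1 and either line. TCOF1 was higher than in clone 2 (log2 difference 0.70 ± 0.21, SE, edgeR adjusted p = 0.0451) and not called against clone 3. CDX2 lies 30.7 kb from PDX1, a factor of pancreas and gut, which was at 0 at day 2 and averaged 0.60 TPM in endothelial cells. Its neighbours URAD and GSX1 stayed at or under 0.56 TPM from day 0 to day 6. CHIC1, 75.7 kb from CDX4, averaged 3.04 TPM at day 1 and 3.91 TPM at day 2, and its steps between days 0 and 3 had edgeR adjusted p-values of 0.324, 0.736 and 0.819.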

How the data were processed

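Per the labels' protocols, total RNA was purified with the RNeasy Plus Mini kit and libraries followed LM-seq. The genome build was Sscrofa11.1 and reads went through bcl2fastq, RSEM 1.2.3 and Bowtie 1.2.3, per the submitters' processing notes. Annotation and strand setting were not given in the sources used here. Without strand, reads from antisense or overlapping genes cannot be told apart. The authors deposited expected counts, which RSEM estimates per gene, and TPM, both for 20683 genes. RefSeq coordinates were matched by symbol for 20618.

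Expected counts were rounded to whole numbers and tested in R 4.3.3 with edgeR 4.0.16 (TMM, filterByExpr with a minimum count of 10, quasi-likelihood test, adjusted p under 0.05), in one fit of the 21 clone 8 libraries and one of the other 15. All 3 CDX genes passed the filter in both. A gene could pass the filter through a single group where it was high. The SE was the size of the log2 change divided by the square root of F. The test was checked on simulated data. Where a group had no reads, the fold was taken against 3 counts over the group. Named genes were the CDX genes, up to 3 per list, comparison and direction with the largest called changes, the 5 most alike per member, and 3 neighbours on each side. The band of 0.3 to 1.2 TPM was chosen after seeing the values. The members and the 21 lists were chosen with earlier results of these data known.

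Same-group libraries formed 42 pairs, and no pair held identical values. Alternatives were RLE scaling, no filter, only the groups compared, a replicate block, DESeq2 1.42.0, limma 3.58.1 on log2(TPM + 1) or log2(TPM + 0.1), and leaving out libraries. Whether replicate numbers pair the libraries was not settled, so the main fits were unpaired. No comparison had every same-numbered pair correlated over 0.1. However, 6 of 6 libraries correlated best with their own number for endothelial cells against day 0, and 5 of 6 for day 1 against day 0. A same-numbered pair of days 1 and 2 reached r = 0.36. Sequences of the genes were not analysed here, and some named-gene results are not reported here.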

Additional observations from a re-analysis of the deposited data

Results flagged for a closer look

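In the fibroblasts 1 library stood apart from the other 3 for CDX1, with 0.39 TPM from 1 read while the others were at 0. A different fibroblast library stood apart for CDX2, with 0.14 TPM from 3 reads while the others were at 0. In both the gap to the next library was the whole range of the group. For continuous values chance gives such a gap in about 1 of 20 groups, and 8 groups were examined. That rate does not hold here: a gene whose reads all fall in 1 library always has a gap of the whole range. With 1 and 3 reads, nothing is concluded from these flags. CDX4 was at 0 in all 4 fibroblast libraries.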

How the results depend on the processing

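Of the values for CDX genes and their likeness under alternatives, 413 kept direction and side of the threshold, of 446. CDX1 from day 1 to day 2 passed with only the groups compared (2.04 on the log2 scale), in limma with log2(TPM + 1) (1.61) or log2(TPM + 0.1) (2.06), and without the libraries that went against their labels (2.03). CDX4 at that step passed with only the groups compared (1.36), DESeq2 (1.32), limma with log2(TPM + 1) (1.23) and without those libraries (1.35). CDX1 in clones against fibroblasts passed in limma (adjusted p = 0.0308 and 0.0138) and changed sign with fibroblast libraries 3 and 4 alone (0.583). CDX1 in clone 1 did not pass without a filter (0.0574 against clone 2, 0.0615 against clone 3) or with the replicate block (0.0707 and 0.0688). The block changed no other CDX call; it took the genes called in clone comparisons from 1365 to 953, 982 to 724 and 618 to 472. Every library correlated best with its own number only for endothelial cells against day 0. The cause of these changes was not tested.

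Counts of genes called under the alternatives were as follows. With only the groups compared, which estimates the spread from those groups alone, they were 4752, 2165 and 6421 for the steps to days 1, 2 and 3 (1808, 1053 and 3374 with all groups) and 7706 for day 3 against day 0 (3346). Endothelial cells gave 7704, 5882, 1469 and 1231 against day 0, day 3, cardiomyocytes and neural progenitors (2752, 2188, 3844 and 4055), and clone 2 against clone 3 gave 2561. Without the libraries that went against their labels, an alternative chosen after seeing the data, the clone 8 counts in the same order were 5415, 3460, 7011, 7160, 6532, 5812, 7778 and 8490. DESeq2 gave 1695 for day 2 against day 1 and 2247, 1877 and 1226 for clones 1 and 2, 1 and 3, and 2 and 3, and limma with log2(TPM + 1) gave 1052 for the last. For likeness with log2(TPM + 0.1), 2 genes of CDX2 and 3 of CDX4 were shared. Leaving out each library in turn gave 996 to 1595, 526 to 693 and 2212 to 2727 genes for the steps to days 1, 2 and 3, and 2309 to 2526 for day 3 against day 0. It gave 1789 to 1970, 1344 to 1547, 2499 to 5202 and 2533 to 6493 for endothelial cells against day 0, day 3, cardiomyocytes and neural progenitors. For clones 1 and 2, 1 and 3, and 2 and 3 it gave 643 to 1757, 435 to 1332 and 330 to 549. For CDX genes it gave 1.71 to 2.25 for CDX1 and 1.22 to 1.46 for CDX4 from day 1 to day 2, 1.68 to 2.39 for CDX2 in endothelial cells against day 3, -0.61 to 0.16 for CDX2 in clone 1 against clone 2, and adjusted p of 0.0476 to 0.0889 and 0.0433 to 0.0865 for CDX1 in clone 1 against clones 2 and 3. In 7 settings a group was left with no reads of the gene, and no value was taken.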
